A study of Homo sapiens with 6 samples.

Results

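The genes described here are 10 genes of fatty acid synthesis and desaturation, namely SREBF1, ACLY, ACACA, FASN, SCD, ELOVL6, FADS1, FADS2, ACSS2 and ME1. They were chosen by name for their role in the pathway, with earlier results of these data known. All 10 were found among the 60107 Ensembl gene IDs of the count table. RNA was measured in 6 libraries from the established human embryonic stem cell line H9, harvested at day 9 of a 10-day directed differentiation toward nephron progenitor cells. The 3 libraries with glutamine came from cells in complete medium, and the 3 without came from cells deprived of glutamine from day 0 to the harvest. All 6 libraries share the cell line, the protocol and the harvest day. The labels do not say whether the replicates were separate cultures, so p-values measure the spread between these libraries, which may be technical. The headings of the count table name days 0 and 9, whereas the labels place every library at day 9. Each heading was tied to its library by the label that quotes it, and every direction below rests on that assignment.

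Cells build fatty acids from acetyl-CoA in the cytosol. ACLY splits citrate and ACSS2 activates acetate to supply acetyl-CoA, ACACA carboxylates it to malonyl-CoA, and FASN assembles the chain with NADPH, part of which comes from ME1. ELOVL6 lengthens the product, SCD introduces the first double bond, and FADS2 and FADS1 desaturate polyunsaturated chains. SREBF1 encodes SREBP1, a membrane-bound transcription factor that is released by proteolysis and activates genes of this pathway, while its relative SREBP2 acts mainly on sterol genes. Glutamine carbon can enter citrate and so reach the pathway.

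The libraries held 78220507 to 84746566 counts each. Across genes, which are not independent replicates, Pearson's r of log2 CPM (counts scaled to a common library total) between replicate 1 with glutamine and the other libraries of its group was 0.9758 and 0.9762, against 0.9908 to 0.9927 with the libraries without glutamine. The log2 ratio of each of the 10 genes is therefore also given without that library. The summed level of 11 nephron progenitor markers was 810 to 1620 CPM with glutamine and 1510 to 2020 CPM without. All 11 reached 1 CPM in at least 1 library. HOXD11 did so only without glutamine, at 3.22 to 6.05 CPM against 0 to 0.542 CPM with it. HOXD11, GDNF and LHX1 were higher in every library without glutamine, EYA1 and CITED1 were lower, and the others overlapped. SIX2, which marks these progenitors, was at 6.57, 34.8 and 27.9 CPM in the glutamine libraries 1, 2 and 3, against 9.70, 7.80 and 7.27 CPM without, with replicate 1 with glutamine the lowest of the 6 libraries. PAX2, a kidney lineage gene, was at 150, 17.0 and 12.9 CPM with and 245, 200 and 146 CPM without, and there replicate 1 with glutamine fell within the range of the libraries without. Of 5 pluripotency markers POU5F1, NANOG and TDGF1 were under 1 CPM in every library, while DPPA4, at 113 to 184 CPM with and 212 to 269 CPM without glutamine, and ZFP42, at 7.18 to 7.41 and 8.03 to 11.8 CPM, were higher in every library without. The 5 summed to 120 to 192 CPM with and 221 to 281 CPM without glutamine. Adipocytes and hepatocytes are the classical fat-making cells, and their markers were near 0: 5 of 6 adipocyte markers and 5 of 7 hepatocyte markers were under 1 CPM in every library. The summed adipocyte markers were 0.445 to 3.85 CPM with and 3.46 to 6.33 CPM without glutamine, and the hepatocyte sums were 2.37 to 4.77 and 3.70 to 4.11 CPM. The remaining adipocyte marker, PPARG, was at 3.28, 0.167 and 0.140 CPM with and 2.999, 4.62 and 5.95 CPM without glutamine. The 5 endothelial markers summed to 33.4 to 94 CPM with and 20.2 to 26.9 CPM without glutamine. Among them KDR was at 24.3, 82.3 and 69.8 CPM with glutamine and 13.5, 12.7 and 17.5 CPM without. PECAM1, CDH5 and TIE1 were also lower in every library without, with PECAM1 and CDH5 at or under 1.77 CPM. TEK overlapped and had the higher mean without glutamine, 2.55 against 1.95 CPM. The part of such shifts in cell makeup in the values below was not tested. In bulk RNA, fewer cells of a type and less RNA per cell cannot be told apart.

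Upstream sequences of 6 of the genes are printed here because these are the genes whose levels did not overlap between the groups. Each is the longest stretch, within 250 bases before a RefSeq transcription start on GRCh38.p14, that holds no exon base annotated in GENCODE 29. For FADS2, which has 2 RefSeq starts, it is the stretch just before the first of them. Capitals mark CCAAT boxes, read as CCAAT or, on the other strand, ATTGG, the site of the factor NF-Y that often stands beside SREBP sites.
SCD (chr10:100346983-100347123, plus strand): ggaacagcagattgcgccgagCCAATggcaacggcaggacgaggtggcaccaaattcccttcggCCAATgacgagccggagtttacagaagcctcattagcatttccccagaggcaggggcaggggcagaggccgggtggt
ACLY (chr17:41919023-41919272, minus strand): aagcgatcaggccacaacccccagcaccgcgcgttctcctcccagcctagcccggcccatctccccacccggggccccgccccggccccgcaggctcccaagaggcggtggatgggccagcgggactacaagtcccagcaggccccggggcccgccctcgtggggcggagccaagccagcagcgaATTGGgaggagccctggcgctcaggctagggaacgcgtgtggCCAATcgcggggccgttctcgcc
ELOVL6 (chr4:110198677-110198841, minus strand): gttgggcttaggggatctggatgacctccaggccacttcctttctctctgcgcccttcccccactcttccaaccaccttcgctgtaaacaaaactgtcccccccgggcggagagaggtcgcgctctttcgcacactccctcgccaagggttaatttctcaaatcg
FADS1 (chr11:61817198-61817253, minus strand): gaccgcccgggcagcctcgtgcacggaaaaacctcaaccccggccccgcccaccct
FADS2 (chr11:61816149-61816202, plus strand): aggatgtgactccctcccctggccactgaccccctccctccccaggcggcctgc
ME1 (chr6:83431072-83431301, minus strand): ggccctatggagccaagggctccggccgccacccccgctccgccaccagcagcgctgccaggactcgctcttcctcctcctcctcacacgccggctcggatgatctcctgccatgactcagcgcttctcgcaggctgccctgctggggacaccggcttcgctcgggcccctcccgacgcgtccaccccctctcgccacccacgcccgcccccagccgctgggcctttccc
SCD and ACLY each held 2 CCAAT boxes in their stretch, and the other 4 stretches held none. Promoter windows of 300 bases were found for 9 of the 10 genes, 14 windows in all, and not for FASN. A CCAAT box stood in 7 of the 14 windows, belonging to ACLY, ACACA, SCD, FADS2 and ACSS2, against 34.6% of 35116 windows over all genes. The letters TCACNCCAC, a form of the sterol regulatory element searched on both strands, were in 0 of the 14 windows and in 1.13% of all windows. They were also in 0 of 13 windows of 8 sterol genes from a list described below. At so low a share, 0 of 14 cannot tell whether these genes lack such sites. The E-box CACGTG was also in 0 of the 14, against 7.26% of all windows. The GC box GGGCGG was in 12 of the 14, belonging to all 9 genes, against 45.0% of all windows. The 14 windows are not separate promoters. Those of ACLY overlap each other and share boxes, and those of FADS2 also overlap each other. A match describes letters only, and these windows do not cover sites farther from the start. FADS1 and FADS2 lie head to head and overlap: the FADS1 start at 61817003 on the minus strand lies 800 and 599 bases past the 2 FADS2 starts at 61816203 and 61816404 on the plus strand.

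The comparison without against with glutamine asked how transcript levels change when the amino acid is withheld. Levels are CPM on library sizes scaled by TMM, and fold changes, also called log2 ratios, are without over with glutamine on the log2 scale with their standard error (SE). Of the 10 genes, 6 were higher in all 3 libraries without glutamine than in all 3 with it, namely ACLY, SCD, ELOVL6, FADS1, FADS2 and ME1, and none was lower in that sense. Over all 22613 genes tested, 17.3% were higher without overlap and 16.9% lower. None of the 10 passed edgeR's quasi-likelihood test at a Benjamini-Hochberg adjusted p under 0.05, which 0.00442% of all genes did. The same 6 genes had an unadjusted p under 0.05, against 14.7% of all genes with such a p in the higher direction. The median log2 fold change was 0.22 over the 10 genes and 0.001 over all genes tested. Their summed level with glutamine was 2885, 2788 and 2887 CPM by replicate, against 3393, 3297 and 3301 CPM without. The 10 genes took 0.298%, 0.278% and 0.281% of all raw counts with glutamine and 0.344%, 0.33% and 0.323% without, a larger share in every library without.

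**Figure D1:**
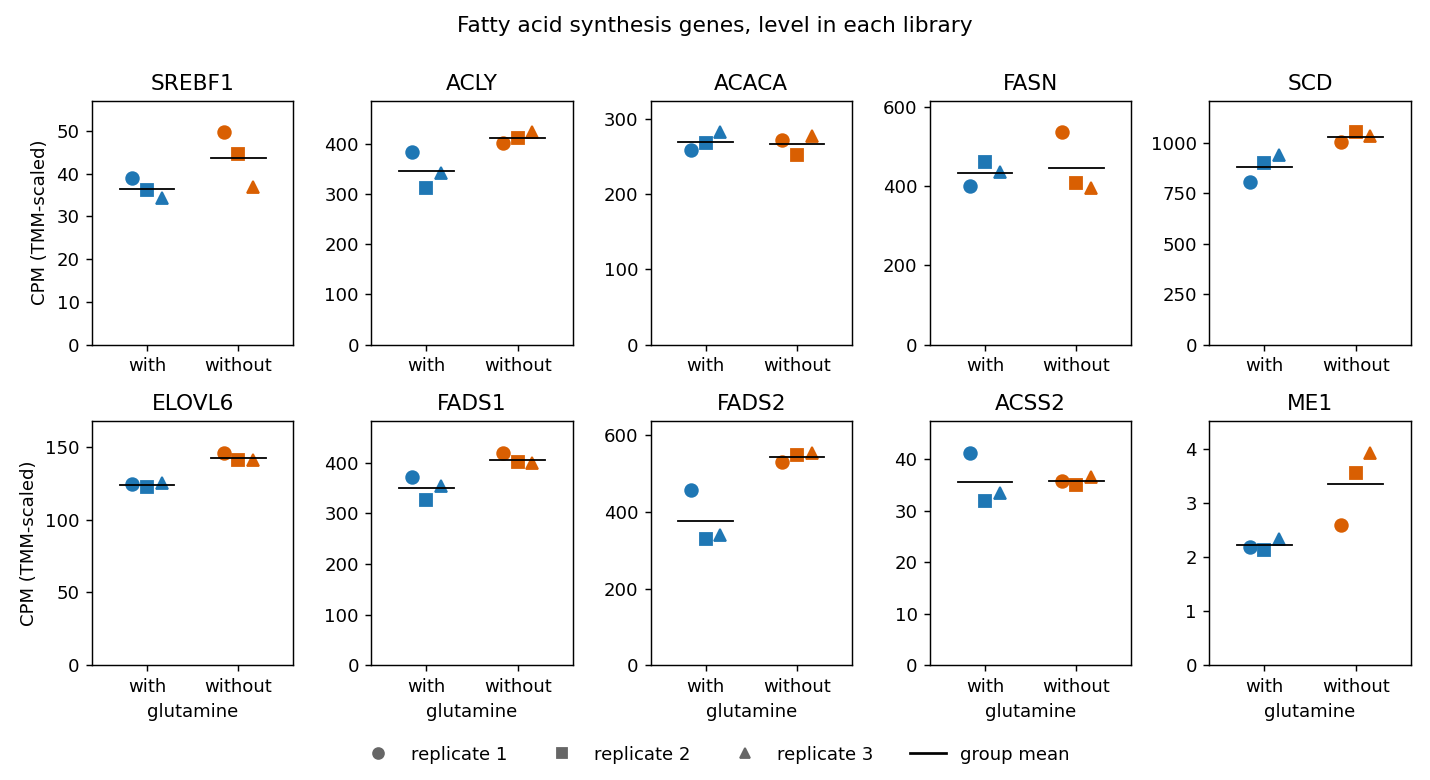
Level of each of the 10 genes in each library, in TMM-scaled CPM on an axis from 0, with glutamine in blue and without in orange; symbols mark the replicate number and lines the group means. The groups do not overlap for ACLY, SCD, ELOVL6, FADS1, FADS2 and ME1, and overlap for SREBF1, ACACA, FASN and ACSS2.

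Without replicate 1 with glutamine, the edgeR test called 5 of the 10 genes higher, FADS2, ACLY, FADS1, ELOVL6 and ME1, and 0 lower. In that comparison 22.3% of 23164 genes were called higher and 19.0% lower, so calls were common. The median over the 10 genes was then 0.23. DESeq2 on all 6 libraries called 2 of the 10, FADS2 and ME1, both higher, against 7.54% of all genes called higher. In 6 of the 10 genes replicate 1 with glutamine lay nearer the mean of the group without glutamine than the mean of the other libraries of its own group, as it did in 14043 of the 22613 genes tested.

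**Figure D2:**
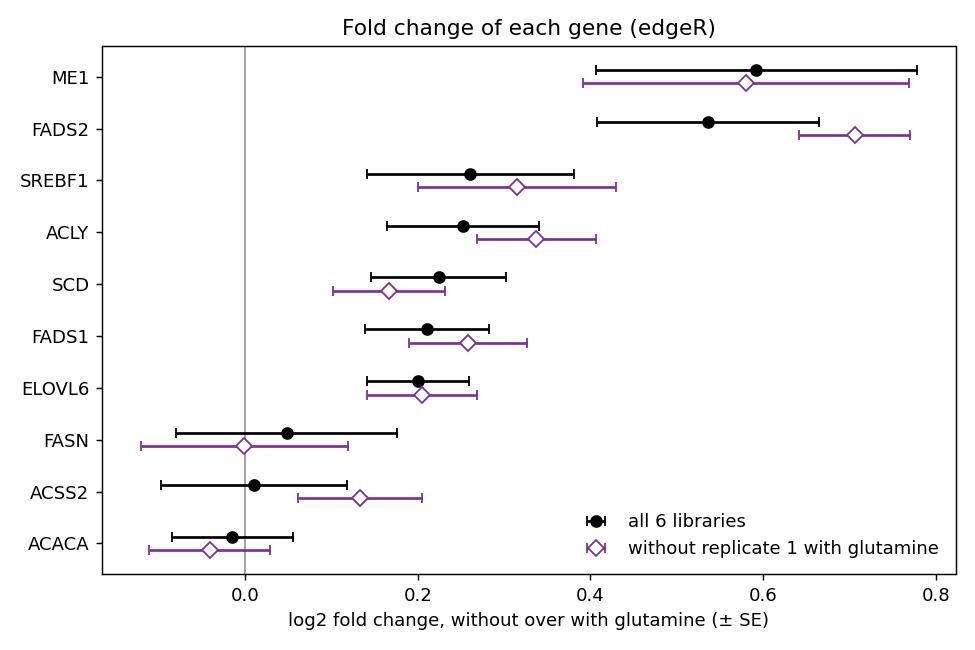
Log2 fold change of each gene, without over with glutamine, with its SE from edgeR, for all 6 libraries (filled circles) and without replicate 1 with glutamine (open diamonds). FADS2 moved from 0.54 to 0.71 and ACLY from 0.25 to 0.34 when that library was left out, while SCD went from 0.22 to 0.17.

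SREBF1 (ENSG00000072310, chromosome 17, 17810399 to 17837002, minus strand; GENCODE 29 on GRCh38) encodes the pathway's transcription factor. With glutamine, replicates 1, 2 and 3 gave it 39.0, 36.1 and 34.4 CPM, and without glutamine 49.6, 44.7 and 36.9 CPM. The groups overlapped, because replicate 3 without glutamine lay below replicate 1 with it. SREBF1 had a log2 ratio of 0.26 (SE 0.12, edgeR adjusted p 0.193), and 0.32 without replicate 1 with glutamine (edgeR adjusted p 0.0516). SREBF1 shares 556 exon bases with RAI1 on the other strand, which had 65770 counts over the 6 libraries against 19352 for SREBF1. The libraries were stranded, but the strand setting of the counting is not given in the sources used here, so reads from the shared bases may be counted for either gene.

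Both routes to cytosolic acetyl-CoA were measured, and their ratio separated the groups. ACLY (ENSG00000131473, chromosome 17, 41866908 to 41930542, minus strand) was at 384, 311 and 341 CPM with glutamine and 401, 411 and 423 CPM without. Replicate 1 with glutamine came close to the lowest library without. ACLY had a log2 ratio of 0.25 (SE 0.09, edgeR adjusted p 0.121), and 0.34 without that library (edgeR adjusted p 0.00376). ACSS2 (ENSG00000131069, chromosome 20, 34872146 to 34927962, plus strand) was at 41.2, 31.9 and 33.5 CPM with glutamine and 35.7, 35.0 and 36.6 CPM without. Its highest library was replicate 1 with glutamine, and the other 2 of that group lay below all 3 without. Its log2 ratio was 0.01 (SE 0.11, edgeR adjusted p 0.958), with a sign that turned under upper quartile scaling, and was 0.13 without replicate 1 with glutamine (edgeR adjusted p 0.167). The ratio of ACLY to ACSS2, in reads per kilobase, was 10.1 ± 0.445 with glutamine and 11.9 ± 0.273 without (SD, n = 3), higher in every library without.

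The committed steps of chain synthesis showed no separation by group. ACACA (ENSG00000278540, chromosome 17, 37084988 to 37406818, minus strand), the rate-limiting carboxylase, was at 259, 268 and 282 CPM with glutamine and 272, 252 and 278 CPM without. Its log2 ratio was -0.02 (SE 0.07, edgeR adjusted p 0.899), and -0.04 without replicate 1 with glutamine (edgeR adjusted p 0.673), and the sign depended on the libraries kept. FASN (ENSG00000169710, chromosome 17, 82078333 to 82098332, minus strand) was at 400, 460 and 435 CPM with glutamine and 536, 409 and 394 CPM without. Replicate 1 without glutamine was the highest of the 6 and the other 2 of its group were among the lowest 3. FASN had a log2 ratio of 0.05 (SE 0.13, edgeR adjusted p 0.822), -0.001 without replicate 1 with glutamine (edgeR adjusted p 0.994), and -0.10 when replicate 1 without glutamine was left out instead. SREBF1 was likewise highest in that library.

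ME1 (ENSG00000065833, chromosome 6, 83210389 to 83431071, minus strand), the cytosolic malic enzyme that yields NADPH, had the lowest level of the 10 and, on all 6 libraries, the largest fold change. Without replicate 1 with glutamine, FADS2 was higher in fold change, at 0.71 against 0.58. It was at 2.18, 2.14 and 2.34 CPM with glutamine and 2.59, 3.55 and 3.92 CPM without, from 167 to 308 reads per library. The groups did not overlap, and replicate 1 without glutamine came closest to the other group. ME1 had a log2 ratio of 0.59 (SE 0.19, edgeR adjusted p 0.101), larger than that of 88.3% of all genes tested, and 0.58 without replicate 1 with glutamine (edgeR adjusted p 0.0337). DESeq2 called it, with an adjusted p of 0.0362.

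Elongation and the first desaturation showed small differences, with little spread for ELOVL6. ELOVL6 (ENSG00000170522, chromosome 4, 110045846 to 110199199, minus strand) was at 125, 122 and 125 CPM with glutamine and 146, 141 and 141 CPM without. Its coefficient of variation was 1.18% with and 1.97% without glutamine, and replicate 1 with glutamine sat with its own group. Its log2 ratio of 0.20 (SE 0.06, edgeR adjusted p 0.0923) was 0.21 without that library (edgeR adjusted p 0.0273). SCD (ENSG00000099194, chromosome 10, 100347124 to 100364834, plus strand) was at 806, 899 and 940 CPM with glutamine and 1002, 1052 and 1036 CPM without. The coefficient of variation of SCD was 7.79% with and 2.45% without glutamine. Replicate 1 with glutamine was the lowest library of SCD, on the far side from the group without glutamine. SCD had a log2 ratio of 0.22 (SE 0.08, edgeR adjusted p 0.121), and 0.17 without that library (edgeR adjusted p 0.0662).

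The polyunsaturated fatty acid desaturases are neighbours in the genome, and both were higher without glutamine in every library. FADS2 (ENSG00000134824, chromosome 11, 61792980 to 61867354, plus strand), the delta-6 desaturase, was at 458, 331 and 339 CPM with glutamine and 531, 549 and 554 CPM without. Replicate 1 with glutamine lay between the rest of its group and the group without. FADS2 had a log2 ratio of 0.54 (SE 0.13, edgeR adjusted p 0.0732), above that of 86.9% of all genes tested, and DESeq2 called it with an adjusted p of 0.00533. Without replicate 1 with glutamine it was 0.71 (edgeR adjusted p 2.6e-05). FADS1 (ENSG00000149485, chromosome 11, 61799625 to 61829318, minus strand), the delta-5 desaturase, was at 372, 326 and 354 CPM with glutamine and 419, 400 and 399 CPM without. Its groups did not overlap, with a log2 ratio of 0.21 (SE 0.07, edgeR adjusted p 0.117), and 0.26 without replicate 1 with glutamine (edgeR adjusted p 0.0135). The ratio of FADS2 to FADS1, in reads per kilobase, was 1.14, 0.941 and 0.887 with glutamine and 1.18, 1.27 and 1.29 without. Every library without glutamine had the higher ratio, and replicate 1 with glutamine was close to the lowest of them. The genes share 490 exon bases on opposite strands, so part of their reads may be counted for either gene. FADS2 also shares 49 exon bases with FEN1 on the same strand, which had 31172 counts over the 6 libraries against 221756 for FADS2.

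Over all 17 alternative settings the edgeR, DESeq2 or limma adjusted p ran from 2.58e-05 to 0.261 for FADS2, from 0.00376 to 0.378 for ACLY, from 0.0135 to 0.389 for FADS1, from 0.0273 to 0.327 for ELOVL6 and from 0.0337 to 0.308 for ME1. For the other 5 genes it ran from 0.0516 to 0.43 for SREBF1, from 0.0662 to 0.331 for SCD, and not under 0.167 for ACSS2, ACACA and FASN.

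Levels of different genes were compared per kilobase of merged exons. With glutamine the order was SCD at 164 ± 12.8 RPKM, the CPM divided by the exon length in kilobases (SD, n = 3), ACLY at 66.2 ± 6.97, FASN at 46.1 ± 3.25, FADS1 at 34.3 ± 2.27, FADS2 at 34.1 ± 6.44, ACACA at 20.7 ± 0.893, ELOVL6 at 17.0 ± 0.200, ACSS2 at 6.60 ± 0.921, SREBF1 at 4.55 ± 0.292 and ME1 at 0.659 ± 0.0318. FADS1 and FADS2 did not differ beyond their spread there. Without glutamine FADS2, at 49.4 ± 1.07, stood beside FASN, at 47.7 ± 8.31, again within the spread, and above FADS1 at 39.7 ± 1.08. The other 7 genes kept their ranks. The order within FASN, FADS1 and FADS2 depends on the length used: over the longest transcript, FADS1 was at 77.5 and FADS2 at 74.0 with glutamine, above FASN at 50.4.

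**Figure D3:**
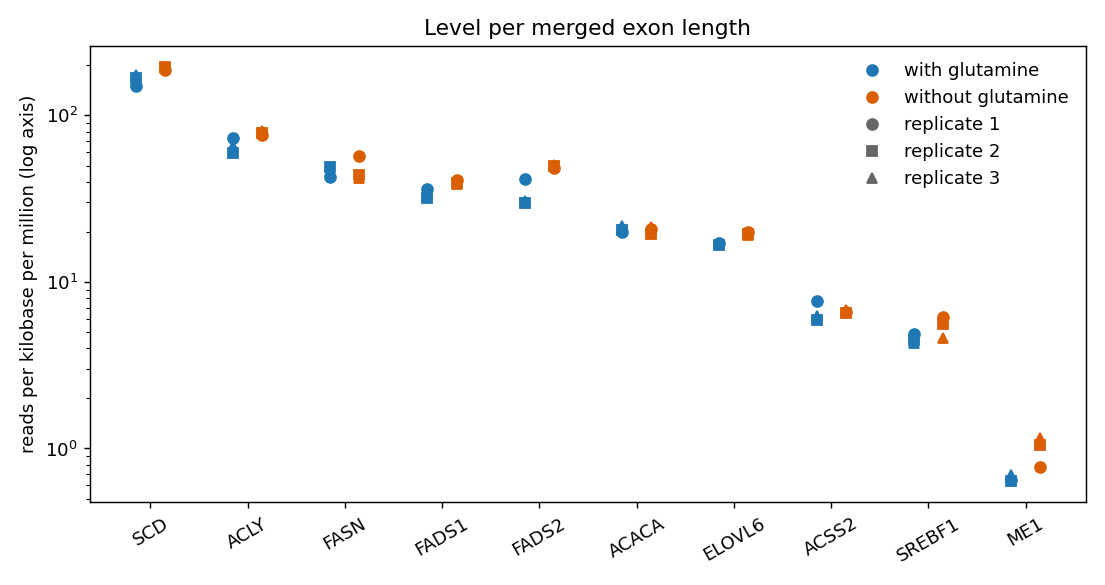
Level of each gene in RPKM over merged exons, on a log axis, in the 3 libraries with glutamine (blue) and the 3 without (orange), ordered by the mean with glutamine. SCD is highest near 164 and ME1 lowest near 0.659 with glutamine.

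Relatives of the enzymes gave a comparison within each library. SCD5, the other human stearoyl-CoA desaturase, had a log2 ratio of 0.05 (SE 0.13, edgeR adjusted p 0.826), -0.04 without replicate 1 with glutamine, and the SCD to SCD5 ratio per kilobase was 66.9 ± 5.90 with and 75.1 ± 4.51 without glutamine (SD, n = 3), with overlap. ACACB, the mitochondrial-membrane carboxylase, had a log2 ratio of -0.14 (SE 0.16, edgeR adjusted p 0.579), with the sign turned to 0.05 without replicate 1 with glutamine, and the ratio of ACACA to ACACB was 14.7 ± 3.29 with and 15.5 ± 1.14 without. FADS3 was at 7.54, 7.81 and 8.07 CPM with glutamine and 7.32, 6.96 and 6.51 CPM without, lower in every library without. The log2 ratio of FADS3 was small, at -0.17 (SE 0.10, edgeR adjusted p 0.292), and of opposite sign to that of FADS2. ELOVL5, which lengthens polyunsaturated chains, had a log2 ratio of -0.09 (SE 0.08, edgeR adjusted p 0.441), and the ratio of ELOVL6 to ELOVL5 was higher in every library without glutamine, at 0.297 ± 0.0119 against 0.244 ± 0.0204 (SD, n = 3). ME2, the mitochondrial malic enzyme, had a log2 ratio of -0.20 (SE 0.09, edgeR adjusted p 0.193), and -0.28 without replicate 1 with glutamine (edgeR adjusted p 0.00969), and the ratio of ME2 to ME1 per kilobase was 6.94 ± 0.607 with and 4.13 ± 0.940 without, lower in every library without.

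The wider pathway was followed in 8 lists of 124 genes, all of which were tested. No gene of these lists passed the edgeR test at an adjusted p under 0.05 on 6 libraries. DESeq2 on the same libraries, which called 7.54% of all genes higher, called 12 of 13 sterol genes higher. In the other 7 lists it called from 1 to 4 genes higher each. Called lower were 1 of 14 SREBP control genes and 3 of 19 activation and uptake genes, against 1401 of all 21759 genes. Of 14 genes that control SREBP, 4 were higher and 1 lower without overlap, with a median log2 fold change of 0.14. INSIG1, which holds SREBP in the endoplasmic reticulum and is itself an SREBP target, was at 91.1, 60.3 and 64.6 CPM with glutamine and 128, 131 and 122 CPM without, a log2 ratio of 0.82 (SE 0.15, edgeR adjusted p 0.0682). SREBF2, INSIG2 and NR1H2 were the other 3 higher genes, at log2 fold changes of 0.28, 0.28 and 0.21, and the ratio of SREBF2 to SREBF1 per kilobase overlapped between groups. The sterol sensor SCAP was at -0.09, and the proteases MBTPS1 and MBTPS2 that release SREBP were at 0.08 and -0.12, all with overlap on 6 libraries. NR1H3, which encodes the liver X receptor alpha that activates SREBF1, was the lower gene, at 10.0, 10.4 and 9.10 CPM with glutamine and 7.59, 7.68 and 7.46 CPM without (log2 fold change -0.38, SE 0.10, edgeR adjusted p 0.0810). MLXIPL, which encodes the carbohydrate-responsive factor ChREBP, was at 0.67 (SE 0.35, edgeR adjusted p 0.233), with overlap. Without replicate 1 with glutamine MLXIPL was at 1.12, with no overlap (edgeR adjusted p 0.00403).

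The 13 sterol genes, whose higher level was already known from these libraries and is no independent support, had a median log2 fold change of 0.71, with 11 of 13 higher without overlap. MVD was at 1.10 and SC5D at 0.14, the lowest. All 10 fatty acid genes lay below the 0.71 of that list.

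**Figure D4:**
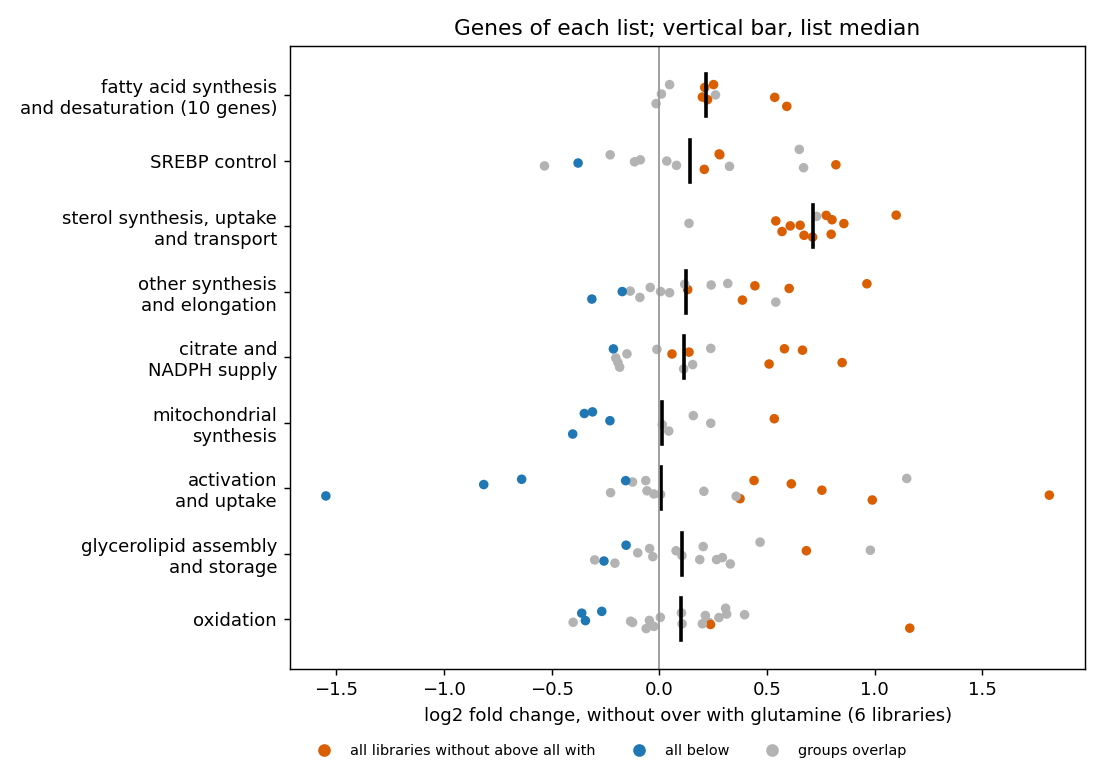
Log2 fold change, without over with glutamine on all 6 libraries, of each gene in 9 lists, with orange for genes higher in every library without glutamine, blue for genes lower in every one and grey for overlap; bars mark list medians. The median of the 10 fatty acid genes is 0.22, that of the sterol genes 0.71, and the other lists run from 0.006 to 0.14.

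Other synthesis and elongation genes had a median of 0.13, with 5 of 16 higher and 2 lower without overlap. ELOVL7 was at 0.96 (SE 0.32, edgeR adjusted p 0.109) and ELOVL2, which makes very long polyunsaturated chains, at 0.60 (SE 0.20, edgeR adjusted p 0.107). ACSS3, a mitochondrial acyl-CoA synthetase, was the lowest at -0.31. In the citrate and NADPH supply list 6 of 15 genes were higher and 1 lower without overlap, with a median of 0.11. SLC25A1, the carrier that exports citrate from mitochondria for ACLY, was at 43.9, 32.6 and 32.1 CPM with glutamine and 63.2, 58.5 and 50.4 CPM without (log2 fold change 0.67, SE 0.15, edgeR adjusted p 0.0706). ME3 was at 0.85 (SE 0.27, edgeR adjusted p 0.105). CS, which makes citrate, was the lower gene, at 178, 186 and 190 CPM with and 152, 164 and 162 CPM without (log2 fold change -0.21, SE 0.07, edgeR adjusted p 0.0983).

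Mitochondrial fatty acid synthesis, a separate pathway that feeds lipoic acid, had 1 of 9 genes higher and 4 lower without overlap, with a median of 0.01. LIPT2, a lipoyl transferase, was at 0.53 and LIPT1 at -0.40. Fatty acid activation and uptake had 6 of 19 higher and 4 lower, with a median of 0.006. SLC27A2, a fatty acid transporter and acyl-CoA synthetase, was at 2.59, 0.102 and 0.216 CPM with glutamine and 3.23, 3.66 and 3.44 CPM without. Replicate 1 with glutamine lay close to the other group there, and its log2 ratio was 1.81 (SE 0.81, edgeR adjusted p 0.182), against 4.42 without that library (edgeR adjusted p 1.66e-06). FABP7, a brain-type fatty acid binding protein, was at -1.55 (SE 0.39, edgeR adjusted p 0.0762). Without replicate 1 with glutamine FABP7 was at -1.89 (edgeR adjusted p 1.02e-05). DESeq2 called FABP7 lower on 6 libraries, with an adjusted p of 0.000275. Glycerolipid assembly and storage had 1 of 17 higher, GPAT3 at 0.68, and 2 lower, with a median of 0.11. The lipid droplet gene PLIN2 was at -0.30, with overlap. Fatty acid oxidation had 2 of 21 higher and 3 lower without overlap, with a median of 0.10. PPARGC1A, a coactivator of oxidative genes, was at 1.16 (SE 0.37, edgeR adjusted p 0.102), and at 1.81 without replicate 1 with glutamine (edgeR adjusted p 4.05e-06). DESeq2 called PPARGC1A on 6 libraries, with an adjusted p of 0.00714. CPT1A, which admits fatty acids to mitochondria, was at -0.40 (SE 0.17, edgeR adjusted p 0.169), with overlap. Without replicate 1 with glutamine, edgeR called 6 of 16, 6 of 15, 2 of 9, 8 of 19, 8 of 17 and 7 of 21 genes higher in these 6 lists, in the order given, and 1, 4, 4, 4, 3 and 3 lower. It called 12 of 13 sterol genes higher and 0 lower, and 5 of 14 SREBP control genes higher and 2 lower. Over all genes 22.3% were called higher and 19.0% lower in that comparison.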

How the data were processed

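The authors deposited raw counts per Ensembl gene and, as a second table, counts divided by DESeq2 size factors (a signal that is no longer whole; 1 constant per library). The submitters' processing notes name Trim Galore, cutadapt, FastQC, STAR 2.5.2b, DESeq2 and GRCh38. The counting program, annotation release and strand setting are not given in the sources used here. Symbols, positions and lengths came from GENCODE 29, which matched 56531 of 60107 IDs, and promoters from RefSeq.

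The test was edgeR 4.0.16 run in R 4.3.3 on the counts (filterByExpr, TMM, quasi-likelihood F test, legacy = FALSE), adjusted by Benjamini-Hochberg over 22613 genes at 0.05. SE is the absolute log2 fold change over the square root of F. Alternatives were other scalings, filters and settings, DESeq2 1.42.0, limma 3.58.1, a replicate block and leaving out each library. On simulated counts the edgeR test recovered 69% of genes changed by a log2 of 1 and 98% of those changed by 2. It made 16 false calls there and 5 with no change simulated. Changes as small as those of the 10 genes were not simulated. The 10 genes, lists and tests were chosen with earlier results of these data known. By rule, the 10 genes were named, plus the 2 highest and the lowest of each list at 1 CPM or more and 9 SREBP regulators. Of these, 1 gene is not reported here. SCD5, ACACB, FADS3, ELOVL5 and ME2 were named after their values were seen.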

Additional observations from a re-analysis of the deposited data

How the results depend on the processing

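Of 170 values for the 10 genes under 17 alternatives, 155 stayed on the same side of zero and of the threshold, 7 became called (5 without replicate 1 with glutamine, 2 under DESeq2) and 8 changed sign, in ACACA, FASN and ACSS2. ACSS2 was at -0.035 under upper quartile scaling. With 1 library left out, ACACA ran from -0.048 to 0.03, FASN from -0.101 to 0.127 and ACSS2 from -0.07 to 0.133. The median over the 10 genes was 0.174 under upper quartile scaling, which moved the median of all genes to -0.043, and 0.178 to 0.232 with 1 library left out. Between 6 and 8 of the 10 genes were higher in every library without glutamine, with 8 when replicate 1 with glutamine was left out. With 1 library left out, non-overlap is met more easily, and the share of all genes is not given there. Of 510 values of the other named genes, 36 became called and 0 changed sign. Over the whole table edgeR called 1 gene at adjusted p under 0.05 (6718 at an unadjusted p under 0.05). That count was 0 under upper quartile scaling, library size only, legacy = TRUE and limma-voom, 2 without a filter, 2 by limma-trend from the normalized table, 3041 by DESeq2, and 0 to 9573 with 1 library left out, being 9573 without replicate 1 with glutamine and 17 without replicate 1 without glutamine. With the replicate block it was 0. Same-numbered libraries did not deviate together (r of -0.021, 0 and 0.028), so the numbers were not taken as pairs. The cause of these differences was not tested.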
